A study of Mus musculus with 15 samples.

Results

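In 15 single mouse embryos at embryonic day 7.5, 10 processed pseudogenes carried RNA at levels that split the embryos into separate states. They were Rps2-ps13, Rpsa-ps10, Rpl17-ps5, Rps26-ps1, Gm11942, Eif5al3-ps, Glns-ps1, Tdpx-ps1, Amd-ps4 and Gm8399, chosen by symbol among the 6062 processed pseudogenes of the 45232 genes in the deposited table because their levels were close to all or none among these embryos. Those levels are therefore a description, and no test was made on them. There were 6 homozygous Apela knockout embryos of the strain NEO-IN (embryos 1 to 6), 6 homozygous Apela knockout embryos of the strain NEO-OUT (embryos 7 to 12) and 3 wild-type embryos, all of a mixed C57Bl6/CD-1 strain. The 12 knockout embryos came from crosses between homozygous knockout parents and so needed no genotyping, all embryos were matched in stage by their morphology, and embryonic and extraembryonic tissue stayed together. Apela encodes a small secreted peptide ligand of the apelin receptor. The study compared embryos without Apela with wild-type embryos, and the labels do not explain the names of the strains. They give no litter, sex or batch.

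A processed pseudogene arises when a messenger RNA is copied back into DNA and inserted elsewhere in the genome, so that it lacks the introns and usually the promoter of its parent gene. Strongly transcribed housekeeping genes, above all those of ribosomal proteins, have left many such copies. A copy can be transcribed if it lands near a promoter, and insertions and sequence variants of copies can differ between mouse strains. Because a copy and its parent share most of their sequence, short reads from one can be counted for the other.

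Normalized counts, the unit used throughout, are read counts divided by a size factor for each library, and they rank embryos within a gene. The 15 libraries held 48.8 to 61.3 M reads, with 20427 to 21059 genes detected. Apela had 5.83 to 25.9 normalized counts in NEO-IN embryos and 50.6 to 107 in NEO-OUT embryos, against 1082 to 2004 in wild-type embryos, so that every library fell on the side its label gives. Markers of epiblast and streak (Pou5f1, T), visceral endoderm (Afp, Apoa1, Ttr), extraembryonic ectoderm (Elf5, Cdx2) and primitive blood (Hbb-bh1, Gata1) were present in every group. The ranges of several markers were not alike in the groups. Ttr had 24121 to 31528 normalized counts in NEO-IN embryos and 33279 to 46959 in NEO-OUT embryos, against 27684 to 32723 in wild-type embryos. Esrrb of the extraembryonic ectoderm had 1260 to 1802 in NEO-IN embryos and 1702 to 2255 in NEO-OUT embryos, against 1451 to 1695 in wild-type embryos. Mixl1 of the streak had 654 to 1836 normalized counts in NEO-IN embryos and 330 to 1595 in NEO-OUT embryos, against 1615 to 1827 in wild-type embryos. Otx2 of the anterior ectoderm had 2324 to 2976 in NEO-IN embryos and 2092 to 2358 in NEO-OUT embryos, against 2778 to 3140 in wild-type embryos. Mesp1 of the mesoderm had 265 to 528 in NEO-IN embryos and 321 to 853 in NEO-OUT embryos, against 547 to 559 in wild-type embryos. The part of these differences in the results was not tested. Of 3 markers of maternal decidua, Prl8a2 ran from 0 to 56.7 and Dcn from 5.62 to 27.1 over all embryos, whereas Pgr ran from 221 to 350. In whole embryos, fewer cells of a type and less RNA per cell cannot be told apart. Reads of 4 Y-linked genes numbered 7843 to 8995 in NEO-IN embryos 1, 2 and 3 and NEO-OUT embryos 9 and 12, and at most 6 in the other embryos.

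Sequence alignment placed each pseudogene beside a parent gene. Rps2-ps13 (chrX:52898588-52899469 in GRCm38, plus strand) was 99.2% identical to the transcript of Rps2, a protein of the small ribosomal subunit, and Rpsa-ps10 (chr3:150072658-150073542, minus strand) was 99.3% identical to Rpsa, another small-subunit protein. Rpl17-ps5 (chr5:22612628-22613182, minus strand) matched the large-subunit gene Rpl17 at 99.6%, and Rps26-ps1 (chr8:107439131-107439579, minus strand) matched the small-subunit gene Rps26 at 99.1%. Gm11942 (chr4:32964888-32965232, plus strand) matched Gm10073, itself a close relative of the ribosomal stalk gene Rplp1, at 97.7% and Rplp1 at 97.4%.

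The other pseudogenes derived from genes of translation, metabolism, redox defence and the cytoskeleton. Eif5al3-ps (chr5:90132229-90132675, plus strand) was 97.2% identical to Eif5a, a translation factor that carries the modified lysine hypusine. Glns-ps1 (chr11:19720355-19721472, plus strand) was 96.8% identical to Glul, which encodes glutamine synthetase. Tdpx-ps1 (chr1:99790429-99791025, minus strand) was 96.3% identical to Prdx2, a peroxiredoxin that reduces hydrogen peroxide. Amd-ps4 (chr4:51253025-51254027, minus strand) was 99.5% identical to both Amd1 and Amd2, of which Amd1 encodes the S-adenosylmethionine decarboxylase of polyamine synthesis. Gm8399 (chr13:81064684-81065800, plus strand) was 98.6% identical to Actg1, which encodes cytoplasmic gamma-actin.

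The copies differed in how much of the parental reading frame they kept. Against the coding sequence of the parent, Rps2-ps13 carried 7 substitutions, all 7 at the third position of a codon, and its longest open frame spanned 293 of 293 codons. Rpsa-ps10 (295 of 295 codons), Rpl17-ps5 (184 of 184), Rps26-ps1 (115 of 115) and Gm11942 (114 of 114) also held a frame as long as the parent's. In Tdpx-ps1 the longest frame was 32 of 198 codons with 22 substitutions, in Amd-ps4 217 of 334 with 3 substitutions, and in Gm8399 281 of 375 with 8 substitutions. Eif5al3-ps kept 148 of 154 codons with 12 substitutions and Glns-ps1 308 of 373 with 24. The longest run identical to the parent was 350 bases in Rpsa-ps10, 324 in Amd-ps4 and 302 in Rps2-ps13, and 113 bases in Eif5al3-ps, the shortest of the 10.

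The first 120 coding bases of Rps2-ps13 (chrX:52898588-52898707, plus strand) and of Rps2 (gene at chr17:24718116-24721929) show how few bases tell the copy from its parent, with differing bases in capitals in both sequences. All sequences are from the GENCODE transcripts of GRCm38, 5′ to 3′.
Rps2-ps13: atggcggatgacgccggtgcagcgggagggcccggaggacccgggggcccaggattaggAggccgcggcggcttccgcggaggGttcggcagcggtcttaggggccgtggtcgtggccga
Rps2: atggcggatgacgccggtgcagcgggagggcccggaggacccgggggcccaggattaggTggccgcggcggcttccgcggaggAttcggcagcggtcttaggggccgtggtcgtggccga

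Rpsa-ps10 is shown because it reached the highest count of the 10; the stretch is chr3:150073324-150073443, minus strand, beside the bases of the Rpsa transcript that align to it (gene at chr9:120127689-120132369), and 2 bases differ.
Rpsa-ps10: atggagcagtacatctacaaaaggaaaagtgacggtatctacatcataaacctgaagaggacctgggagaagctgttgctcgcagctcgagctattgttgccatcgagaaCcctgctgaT
Rpsa: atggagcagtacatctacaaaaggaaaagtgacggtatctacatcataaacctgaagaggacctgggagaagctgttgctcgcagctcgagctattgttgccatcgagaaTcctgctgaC

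Tdpx-ps1 and Gm8399 are shown because genes near their parents were among those most like them in pattern. The stretch of Tdpx-ps1 (chr1:99790906-99791025, minus strand) differed from the start of the Prdx2 coding sequence (gene at chr8:84969587-84974834) at 9 bases, and that of Gm8399 (chr13:81065277-81065396, plus strand) from Actg1 (gene at chr11:120345690-120348542) at 2 bases.
Tdpx-ps1: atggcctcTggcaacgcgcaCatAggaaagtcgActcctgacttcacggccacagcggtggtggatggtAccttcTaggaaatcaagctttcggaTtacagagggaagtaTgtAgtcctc
Prdx2: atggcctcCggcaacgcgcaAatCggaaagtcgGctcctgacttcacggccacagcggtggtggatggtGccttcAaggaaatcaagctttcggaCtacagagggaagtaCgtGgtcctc
Gm8399: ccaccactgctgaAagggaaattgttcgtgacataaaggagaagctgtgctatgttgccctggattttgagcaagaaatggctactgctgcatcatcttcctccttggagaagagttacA
Actg1: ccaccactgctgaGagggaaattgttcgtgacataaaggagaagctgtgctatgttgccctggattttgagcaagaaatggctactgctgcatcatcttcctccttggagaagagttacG

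Rps2-ps13 showed the widest split of the 10, and its values fell into 3 ranges. NEO-IN embryos 2 and 5 had 15836 and 14973 normalized counts, and NEO-IN embryos 1, 3, 4 and 6 had 7974, 8178, 7658 and 7213. NEO-OUT embryos 7 to 12 had 15.9, 13.4, 22.5, 10.7, 9.8 and 11.5, while the wild-type embryos 1, 2 and 3 had 8.31, 7548 and 6892. All NEO-IN embryos were thus high and all NEO-OUT embryos low without overlap, and the wild-type embryos lay on both sides. The pseudogene lies on the X chromosome, but Y-linked reads did not follow its level: of the highest pair, NEO-IN embryo 2 had 7843 such reads and NEO-IN embryo 5 had 2.

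Rps2 itself ran the other way. It had 52894 to 60983 normalized counts in NEO-IN embryos (median 56283) and 72313 to 94827 in NEO-OUT embryos (median 79339), against 99859, 72894 and 73356 in wild-type embryos 1, 2 and 3. The highest Rps2 value of the study was thus in wild-type embryo 1, where Rps2-ps13 was lowest. When pseudogene and parent were added, the sum was 60868 to 69713 in NEO-IN embryos and 72326 to 94837 in NEO-OUT embryos, against 99867, 80442 and 80248 in wild-type embryos. The coefficient of variation over the 15 embryos was 14% for the sum and 20.6% for Rps2 alone. NEO-IN embryos still had lower sums than all other embryos.

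Rpsa-ps10 was high in 1 knockout embryo and 2 wild-type embryos. NEO-IN embryo 3 had 18400 normalized counts and the other NEO-IN embryos 390 to 497. NEO-OUT embryos had 386 to 555 (median 510), and wild-type embryos 1, 2 and 3 had 19237, 481 and 17626. The lowest value, 386 in NEO-OUT embryo 8, came from 331 reads, and whether these came from the copy or from Rpsa was not tested. The parent Rpsa had 69766 normalized counts in NEO-IN embryo 3, the lowest of its strain, and 70757 and 61389 in wild-type embryos 1 and 3, against 83122 in wild-type embryo 2. The sum of both was 88166 in NEO-IN embryo 3 and 89995, 83603 and 79015 in the wild-type embryos, and its coefficient of variation over all embryos was 5.7%, against 9.77% for Rpsa alone.

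Rps26-ps1 and Rpl17-ps5 were high in wild-type embryos only, but not in all of them. Rps26-ps1 had 287 to 488 normalized counts in NEO-IN embryos (median 327) and 274 to 482 in NEO-OUT embryos (median 422), against 5653, 424 and 5818 in wild-type embryos 1, 2 and 3. It lies within Wwp2, a ubiquitin ligase gene on the opposite strand, on the same chromosome as Apela and 42.4 Mb from it. Rpl17-ps5 had 34.2 to 95.2 in NEO-IN embryos and 53.8 to 102 in NEO-OUT embryos, against 62.4, 51.5 and 1164 in wild-type embryos. In both cases wild-type embryo 2 was within the range of the knockout embryos, so the high state was not shared by the wild-type group. The sums with Rps26 and Rpl17 varied about as much as the parents alone, by 13.4% and 12.9% for Rps26 and by 10.8% and 10.7% for Rpl17.

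Gm11942, the copy of an acidic stalk protein, was high in all but 2 embryos. NEO-IN embryos 1, 2, 3, 5 and 6 had 2460, 2063, 2323, 1841 and 1306 normalized counts, and NEO-IN embryo 4 had 54.1. NEO-OUT embryos had 2571 to 5312 (median 4325), and wild-type embryos 1, 2 and 3 had 2120, 59.4 and 1573. Every NEO-OUT embryo was above every NEO-IN and wild-type embryo. Within NEO-IN and within wild-type embryos, Rplp1 was highest where Gm11942 was lowest. Rplp1 had 87978 in NEO-IN embryo 4, against 70857 to 83936 in the others of that strain. In wild-type embryo 2 it had 101763, against 81025 and 81725 for the others of that group.

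Among the copies of non-ribosomal genes, Eif5al3-ps separated NEO-OUT from wild-type embryos and split NEO-IN embryos. NEO-IN embryos 1, 4, 5 and 6 had 837, 679, 655 and 498 normalized counts and embryos 2 and 3 had 33 and 38.7. NEO-OUT embryos had 15.9 to 41.6 (median 30.5), and wild-type embryos had 648, 499 and 911. Eif5a, at 107276 to 125649 over all embryos, had a coefficient of variation of 4.53%.

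Glns-ps1 was the only one of the 10 that was low in all wild-type embryos. NEO-IN embryos 1 to 6 had 199, 488, 247, 21.2, 248 and 217 normalized counts, NEO-OUT embryos 7 to 12 had 245, 287, 560, 37.3, 308 and 275, and wild-type embryos had 33.3, 33.7 and 33.5. Each strain thus held 1 embryo as low as wild-type, 1 embryo at 488 or 560 and 4 embryos between 199 and 308. Glul was lowest within each strain in the embryo with the highest Glns-ps1, at 28424 in NEO-IN embryo 2 and 32542 in NEO-OUT embryo 9. NEO-OUT embryo 9 was also the lowest of its strain for Rpl17, Eif5a, Rps26 and Actg1, and the part of this in the Glul value was not tested.

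Tdpx-ps1 was high in all wild-type embryos and in 2 NEO-IN embryos. NEO-IN embryos 3 and 4 had 315 and 157 normalized counts and the other NEO-IN embryos 16.6 to 25.2. NEO-OUT embryos had 13.4 to 39.2 (median 27.1), against 274, 235 and 143 in wild-type embryos. NEO-OUT and wild-type embryos did not overlap. Prdx2 varied little, from 18471 to 24110 over all embryos.

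Amd-ps4 was near 0 in a single embryo. NEO-IN embryos 1 to 6 had 138, 151, 156, 171, 280 and 1.95 normalized counts, and the value of embryo 6 corresponds to 2 reads. NEO-OUT embryos had 242 to 375 (median 286), and wild-type embryos had 336, 329 and 278. NEO-IN embryos 1 to 4 lay between the low embryo and all others. Amd1 was also lowest within its strain in NEO-IN embryo 6, at 7631 against 8662 to 9250 in the other NEO-IN embryos, and so was Amd2, at 78.1.

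Gm8399, the copy of gamma-actin, was high in 2 NEO-OUT embryos and 2 wild-type embryos. NEO-IN embryos had 77.2 to 124 normalized counts (median 115). NEO-OUT embryos 8 and 9 had 7048 and 4372 and the other NEO-OUT embryos 90.7 to 113, while wild-type embryos 1, 2 and 3 had 5612, 88.1 and 6620. It overlaps the antisense transcript 9330111N05Rik, annotated on the same strand, so reads of that locus cannot be assigned to either alone. Actg1, at 40404 to 50639 over all embryos, varied by 6.54%, and the sum by 6.68%.

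**Figure D1:**
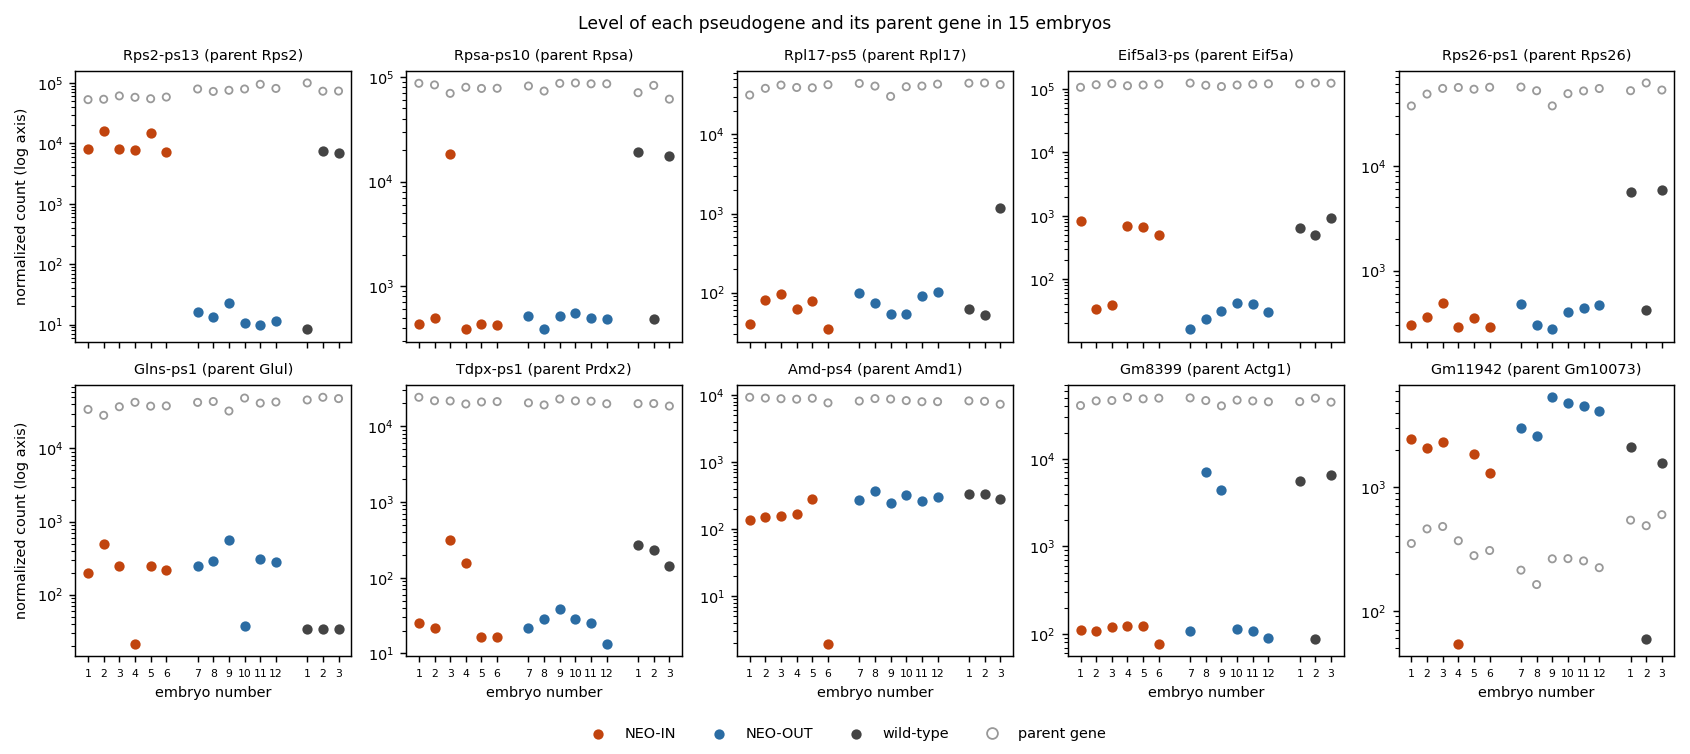
Normalized counts (log axis) of each pseudogene (filled points) and its parent gene (open points) in NEO-IN embryos 1 to 6, NEO-OUT embryos 7 to 12 and wild-type embryos 1 to 3, 1 point per embryo. Rps2-ps13 fell in 3 ranges with the NEO-IN embryos at 7213 or more and the NEO-OUT embryos at 22.5 or less, whereas the open points of the parents stayed within a narrow band, except for Gm10073, which lay below most Gm11942 values.

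To describe how separate the states were, the values of a gene were put in order and the widest step between neighbouring values was taken on the log2(normalized count + 1) scale. The step was 8.20 in Rps2-ps13, a 306-fold difference between 22.5 and 6892 and the widest of the 1001 processed pseudogenes with a mean of at least 10. It was 5.55 in Amd-ps4, 5.13 in Gm8399, 4.99 in Rpsa-ps10 and 4.44 in Gm11942. It was 3.55 in Eif5al3-ps and 3.53 in Rps26-ps1, and in Rpl17-ps5 it spanned an 11.4-fold difference; the narrowest were 2.38 in Glns-ps1 and 1.85 in Tdpx-ps1. The median step was 0.394 over processed pseudogenes and 0.149 over all 16430 genes tested. All 10 had their widest step between the same embryos when values were scaled to library size (CPM) instead. Both scales divide the same reads by a factor for each library, so they could hardly differ here and the agreement adds no support.

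The choice of the 10 was not complete. Besides them, 65 processed pseudogenes had a step at least as wide as that of Tdpx-ps1; 7.49% of processed pseudogenes did so, and 0.911% of protein-coding genes. Hspe1-ps5 stood just above Tdpx-ps1 with 1.86 and Gm17060 just below with 1.80. All 10 passed the filter of a mean of at least 10, and their means include the embryos in which they were high. The lowest value was below 10 only in Rps2-ps13 (8.31) and Amd-ps4 (1.95).

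The 2 strains and the wild-type embryos were not uniform for these pseudogenes. Taking the widest step as the divide, NEO-IN embryos lay on both sides for 6 of the 10, NEO-OUT embryos for 2 and wild-type embryos for 6. NEO-OUT embryos were all below it for 6 and all above it for 2, Amd-ps4 and Gm11942. Wild-type embryos 1 and 3 lay together on one side and wild-type embryo 2 on the other for Rpsa-ps10, Rps26-ps1, Gm8399 and Gm11942, but wild-type embryo 1 alone was low for Rps2-ps13 and wild-type embryo 3 alone high for Rpl17-ps5. No 2 of the 10 split the 15 embryos in the same way.

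Per kb of annotated exon, the pseudogenes reached from a few percent of the parent to its level. At its highest, Rpsa-ps10 had 103% of the Rpsa level in wild-type embryo 3, Rps2-ps13 61.2% of Rps2 in NEO-IN embryo 2, Rps26-ps1 37.9% of Rps26 in wild-type embryo 3 and Gm8399 36.1% of Actg1 in NEO-OUT embryo 8. Amd-ps4 reached 15% of Amd1 in NEO-OUT embryo 8, and Tdpx-ps1, Rpl17-ps5, Glns-ps1 and Eif5al3-ps reached 7.47%, 6.54%, 5.11% and 4.15%. The length of a parent counts all its annotated exons, 3170 bases for Rpsa against 885 for its copy, so these shares overstate the copies. Gm11942 exceeded Gm10073 by far, at up to 2900% in NEO-OUT embryo 9. In share of the reads of pseudogene and parent together, Rps2-ps13 took up to 22.8%, Rpsa-ps10 up to 22.3% and Gm8399 up to 13.2%.

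**Figure D2:**
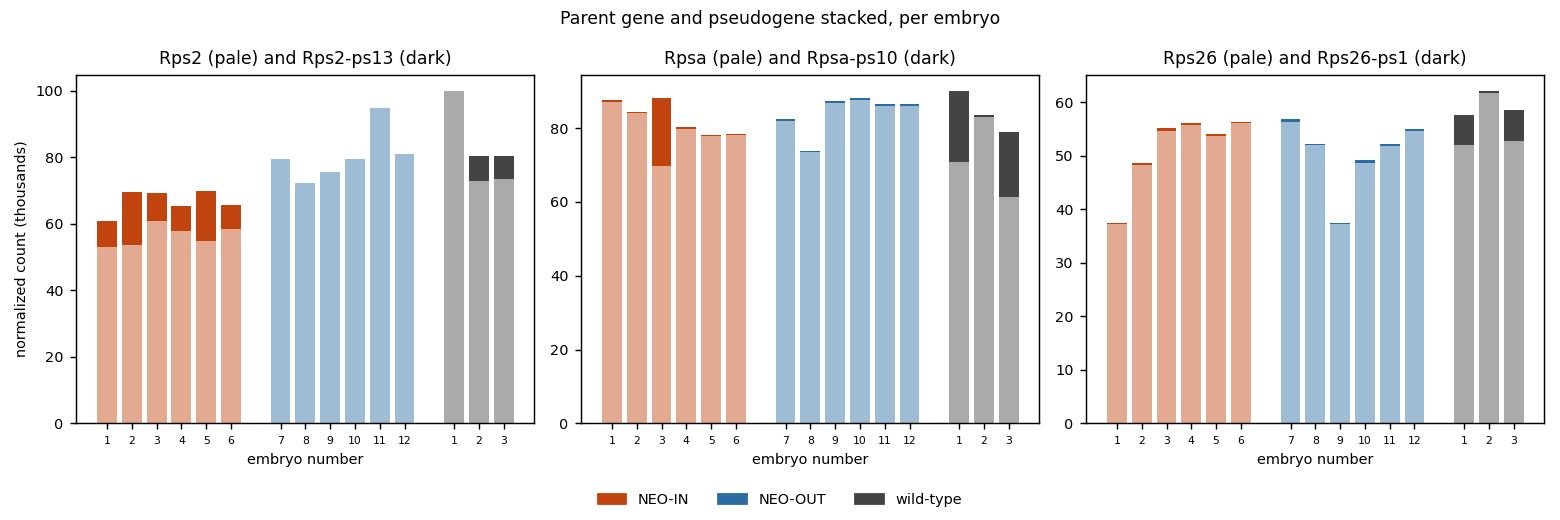
Normalized counts (in k) of a parent gene (pale) with its pseudogene stacked on top (dark) in NEO-IN embryos 1 to 6, NEO-OUT embryos 7 to 12 and wild-type embryos 1 to 3. Rpsa with Rpsa-ps10 summed to 88166 in NEO-IN embryo 3 and 89995 in wild-type embryo 1, where Rpsa alone had 69766 and 70757, while Rps2 with Rps2-ps13 stayed at 69713 or less in NEO-IN embryos.

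The genes whose levels over the 15 embryos were most like those of a pseudogene were sought by Pearson correlation of log2(normalized count + 1), given here as a description without a test, since groups, embryos and libraries are shared by all genes. The 3 most alike per pseudogene made 30 genes. Of these, 1 lay on the chromosome of the pseudogene and 6 on that of the parent, 5 of them within 5 Mb of the parent. Processed pseudogenes made up 6 of the 30. The best match of 3 of them (Gm6563, Gm7785 and Gm15770) was a gene less than 5 Mb from the parent, and that of Gm17511 was Rplp1, the next best match of Gm11942. Rps24-ps3 and Gm6645 had no such link, and Gm7785 is also the 1 gene on the chromosome of the pseudogene. The window of 5 Mb was chosen after these genes had been seen.

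Rps2-ps13 was most like St6galnac3 (r = 0.926), Dock1 (0.919) and Rpl3l (0.91), and Rpl3l lies 5.89 kb from Rps2. Rpl3l, a relative of the ribosomal protein gene Rpl3 that is known from striated muscle, had 31, 64.1, 27.8, 33, 74.2 and 33.2 normalized counts in NEO-IN embryos 1 to 6. It had 0 to 7.49 in NEO-OUT embryos and 2.08, 15.8 and 39.1 in wild-type embryos. Like Rps2-ps13 it was highest in NEO-IN embryos 2 and 5, between in the other NEO-IN embryos and near 0 in NEO-OUT embryos and wild-type embryo 1.

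Tdpx-ps1 lies on chromosome 1, yet its 2 most alike genes lay on chromosome 8 near Prdx2. Ucp1, the uncoupling protein of brown fat mitochondria, lies 1671 kb from Prdx2 (r = 0.889). It had 123 and 115 normalized counts in NEO-IN embryos 3 and 4 and 0 to 1.95 in the others of that strain, 1.96 to 11.5 in NEO-OUT embryos, and 154, 128 and 27.9 in wild-type embryos. The embryos high for Ucp1 were the same 5 that were high for Tdpx-ps1. Il27ra, a subunit of the interleukin 27 receptor at 927 kb from Prdx2 (r = 0.883), had 47.6 and 37.7 in NEO-IN embryos 3 and 4 and 1.94 to 3.9 in the others of that strain, 3.82 to 11.2 in NEO-OUT embryos, and 20.8, 25.7 and 9.32 in wild-type embryos. NEO-OUT embryo 7, at 11.2, lay above wild-type embryo 3, so that Il27ra did not divide the embryos as Tdpx-ps1 did. The third was Gm7785, a processed pseudogene on chromosome 1 at 8.49 Mb from Tdpx-ps1, whose best match Zfp330 lies 2195 kb from Prdx2 (r = 0.878). Prdx2 is on the chromosome of Apela, 19.9 Mb from it.

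Gm8399 on chromosome 13 was most like Gm15770 (r = 0.909), Ccdc137 (0.904) and Arl16 (0.882). Ccdc137 and the small GTPase gene Arl16 lie 110 kb and 116 kb from Actg1 on chromosome 11, and Gm15770 is a processed pseudogene on chromosome 5 whose best match, the mitochondrial ribosomal protein gene Mrpl12, lies 136 kb from Actg1. Gm15770 had 32.9 and 48 normalized counts in NEO-OUT embryos 8 and 9 and 37.4 and 43.8 in wild-type embryos 1 and 3, against 0 to 7.49 in all others. Ccdc137 had 2508 and 2701 in the same NEO-OUT embryos and 2339 and 2580 in the same wild-type embryos, and 1689 to 2061 in the rest. The embryos were split as by Gm8399, with smaller differences in the protein-coding genes than in the pseudogenes.

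Rps26-ps1 was most like Gm6563 (r = 0.954), a processed pseudogene on chromosome 19. Its best match at 99.8% is Sarnp, which encodes a nuclear protein of mRNA export and lies 191 kb from Rps26. Gm6563 had 670 to 785 normalized counts in NEO-IN embryos and 623 to 752 in NEO-OUT embryos, against 1251, 772 and 1220 in wild-type embryos. Wild-type embryos 1 and 3 were high for both. The likeness to Gm6563 did not hold by rank. With Spearman correlation, the pseudogene most like Rps26-ps1 among those with a best match within 5 Mb of Rps26 was Gm6863 (0.504, rank 1209). Gm6563 stood below it. The next most alike, with no such link to Rps26, were Zfp985 (r = 0.914), with 154 to 230 in NEO-IN embryos and 209 to 255 in NEO-OUT embryos, against 551, 224 and 532 in wild-type embryos, and the pseudogene Gm6445 (0.888). Gm11942 was most like Gm38357 (r = 0.932), Catsper2 (0.909) and Gm17511 (0.902), a processed pseudogene on chromosome 7 with Rplp1 as its best match. Gm17511 had 16.5 in NEO-IN embryo 4 and 17.8 in wild-type embryo 2, the embryos in which Gm11942 was low, and 42.8 to 154 in all others.

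**Figure D3:**
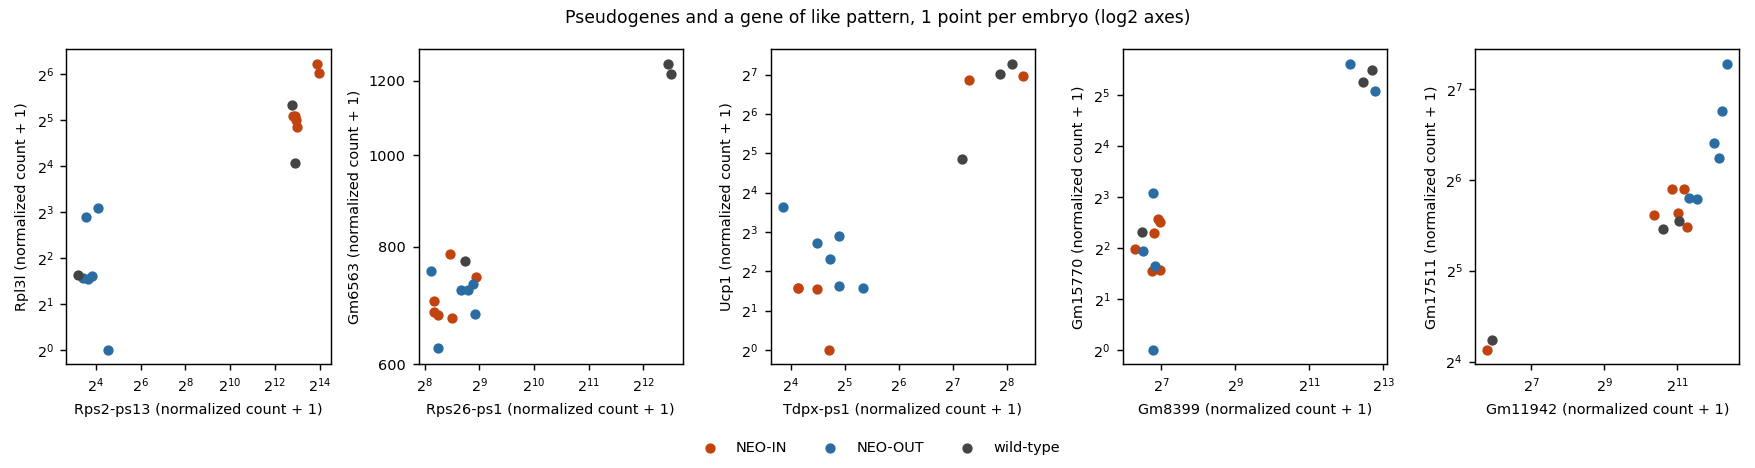
Normalized count + 1 (log axes) of 5 pseudogenes (horizontal) against 1 gene or pseudogene of like pattern each (vertical), 1 point per embryo in NEO-IN, NEO-OUT and wild-type embryos. Rpl3l, Gm6563, Ucp1, Gm15770 and Gm17511 were each picked for their likeness, and in each panel the embryos high for the pseudogene are also high on the vertical axis.

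The 3 most alike genes of the other 5 pseudogenes held none within 5 Mb of the parent, and neither did those of Rps26-ps1 and Gm11942. Rpsa-ps10 was most like R3hdm4, Tsc2 and 2200002D01Rik (r = 0.795 to 0.843), and Rpl17-ps5 most like Rps24-ps3, Tex101 and Frzb (0.796 to 0.857), none of them on the chromosome of the pseudogene or the parent. Rps24-ps3, like Rpl17-ps5, was highest in wild-type embryo 3, at 5442 normalized counts, against 423 to 806 in every other embryo. Eif5al3-ps was most like Rhobtb3, Tmem8b and Ror1 (0.857 to 0.873). Amd-ps4 was most like Gm43437, Gm6645 and Nsa2 (0.874 to 0.934), of which Gm6645 and Nsa2 were lowest in NEO-IN embryo 6 at 8.79 and 2199. Glns-ps1 was most like Creg1 (0.906), which lies on the chromosome of Glul but 11.9 Mb from it, Txndc11 (0.879) and Ppp6r1 (0.831).

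Taking the 50 most alike genes of each pseudogene instead, 20 of 500 (4%) lay within 5 Mb of the parent, where 0.654% of all genes tested lay, and 3 of 500 (0.6%) within 5 Mb of the pseudogene, where 0.303% lay. The 20 include the 5 genes near the parents that were seen before the window was chosen, so the 4% is a description only. They also include Amd2, which matches Amd-ps4 as well as Amd1 does, and Gm8225, a processed pseudogene with Rps2 as its best match. Tdpx-ps1 had 7 of its 50 near Prdx2 and Gm8399 had 5 near Actg1, whereas Rpsa-ps10, Rpl17-ps5 and Rps26-ps1 had 0 near their parents. With Spearman correlation the counts were 15 and 3. Tdpx-ps1 then still had 7 near Prdx2, whereas Gm8399 had 2 near Actg1. Gm15770 was then at rank 52 for Gm8399 (0.589). Genes within such a window are not independent of each other, and the cause of the likeness was not tested.

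**Figure D4:**
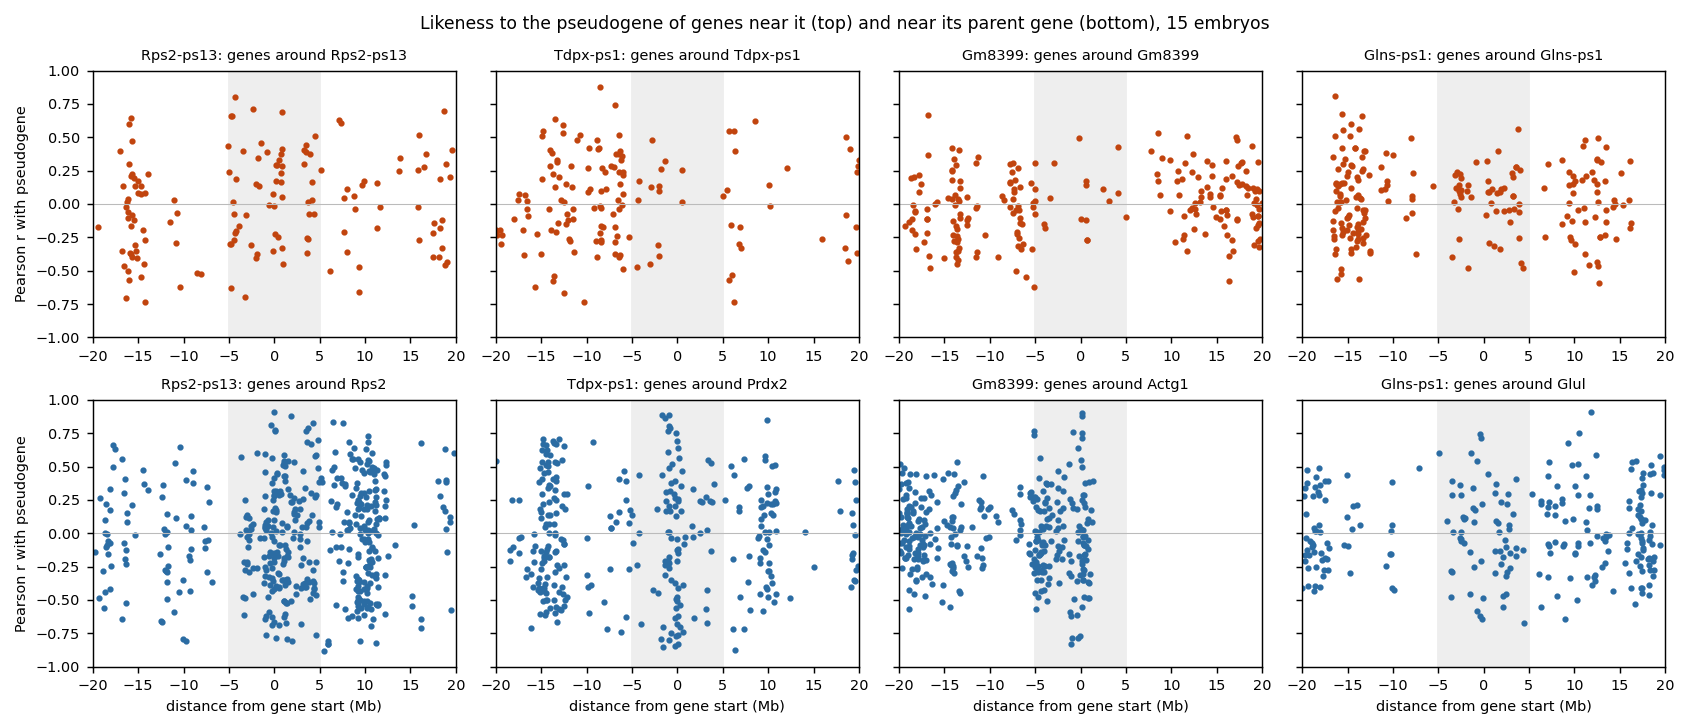
Pearson r with a pseudogene over 15 embryos (vertical) of every gene tested within 20 Mb, by distance in Mb from the start of the pseudogene (top) or of its parent (bottom), 1 point per gene, with the 5 Mb window shaded. Only Rps2-ps13, Tdpx-ps1, Gm8399 and Glns-ps1 are shown. Points above 0.85 stand near Rps2, Prdx2 and Actg1, with Rpl3l at 0.91, Ucp1 at 0.889 and Ccdc137 at 0.904. Such points also stand outside the window, with Gm7785 (0.878) at 8.49 Mb from Tdpx-ps1 and Creg1 (0.906) at 11.9 Mb from Glul. The highest within the window around Rps2-ps13 and Gm8399 themselves were 0.801 and 0.497.

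The same parents have other copies, and most did not follow. Rps2 was the best match of 31 other processed pseudogenes tested, Rpsa of 8, Rpl17 of 6, Actg1 of 2 and Amd1 of 1. Their correlation with the chosen copy ran from -0.806 to 0.878. The highest was Gm8225, named after its values were seen, a copy of Rps2 on chromosome 17 that lies 1821 kb from Rps2 itself. Gm8225 had 37.1 to 112 normalized counts in NEO-IN embryos and 9.36 to 22.6 in NEO-OUT embryos, against 8.31, 31.7 and 43.8 in wild-type embryos.

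Only 4 of these other copies had a step of at least 1, and Rps2-ps10, also named after its values were seen, divided the NEO-IN embryos. It had 510, 639, 650 and 658 normalized counts in NEO-IN embryos 1, 3, 4 and 6 but 0 and 7.81 in NEO-IN embryos 2 and 5. It had 2.94 to 13.7 in NEO-OUT embryos and 3.96 to 11.2 in wild-type embryos. The embryos in which Rps2-ps10 was high were thus those in the middle range of Rps2-ps13, and the NEO-IN embryos in which it was near 0 were those with the highest Rps2-ps13. Wild-type embryos 2 and 3 had Rps2-ps13 in the middle range without Rps2-ps10.

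The parent genes were not used in the choice, and their levels were compared between the groups with limma on log2(normalized count + 1) over all 16430 genes, with Benjamini-Hochberg adjustment. Rps2 was 1.44-fold lower in NEO-IN embryos than in wild-type embryos (log2 difference -0.53, SE 0.09, limma adjusted p = 0.00362) and 1.42-fold lower than in NEO-OUT embryos (-0.51, SE 0.07, limma adjusted p = 0.000297). In NEO-OUT embryos it differed from wild-type by -0.02 (95% interval -0.21 to 0.17). Rps2-ps13 was high in the same 6 NEO-IN embryos, and the part of reads shared between the copy and Rps2 in this difference was not tested.

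Gm10073 lies on the chromosome of Apela, 41.5 Mb from it. Gm10073 fell in NEO-OUT embryos, 2.37-fold against wild-type (log2 fold change -1.25, SE 0.17, limma adjusted p = 0.000516), with 163 to 264 normalized counts in NEO-OUT embryos and 487 to 598 in wild-type embryos. In NEO-IN embryos it had 279 to 480, higher than in NEO-OUT embryos (0.69, SE 0.14, limma adjusted p = 0.00434), and its difference from wild-type did not pass with limma (-0.56, limma adjusted p = 0.0975) but passed with DESeq2 (DESeq2 adjusted p = 0.0322). The next best match of Gm11942, Rplp1, was lower in NEO-OUT embryos too, 1.52-fold (-0.60, SE 0.08, limma adjusted p = 0.000234). Gm11942, near identical to both, was at its highest in the same NEO-OUT embryos. Its mean was 4056 in NEO-OUT and 1251 in wild-type embryos, where the means of Rplp1 were 57881 and 88171. The part of shared reads in these differences was not tested.

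Against wild-type, the parents called were 1 of 10 in NEO-IN embryos, where 2.98% of all genes tested were called (1.53% higher and 1.44% lower). In NEO-OUT embryos it was also 1, beside 6.35% of all genes (3.34% higher and 3.01% lower), and in the mean of both strains 1, beside 2.83% (1.61% higher and 1.22% lower). Between NEO-IN and NEO-OUT embryos 2 were called, beside 13.3% of all genes (6.74% higher and 6.52% lower). Rpsa, Rpl17, Eif5a, Rps26, Prdx2, Amd1 and Actg1 were called in none, with log2 fold changes between -0.19 and 0.23. Glul was 1.33-fold lower in NEO-IN embryos than in wild-type embryos but did not pass (-0.41, SE 0.11, limma adjusted p = 0.0543). It passed with DESeq2 (DESeq2 adjusted p = 0.00792) and without NEO-IN embryo 4 (limma adjusted p = 0.0316), NEO-OUT embryo 9 (0.0191) or NEO-OUT embryo 10 (0.0447). On NEO-IN and wild-type embryos 1 to 3 alone it passed with and without the replicate block (limma adjusted p = 0.0231 and 0.0123).

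**Figure D5:**
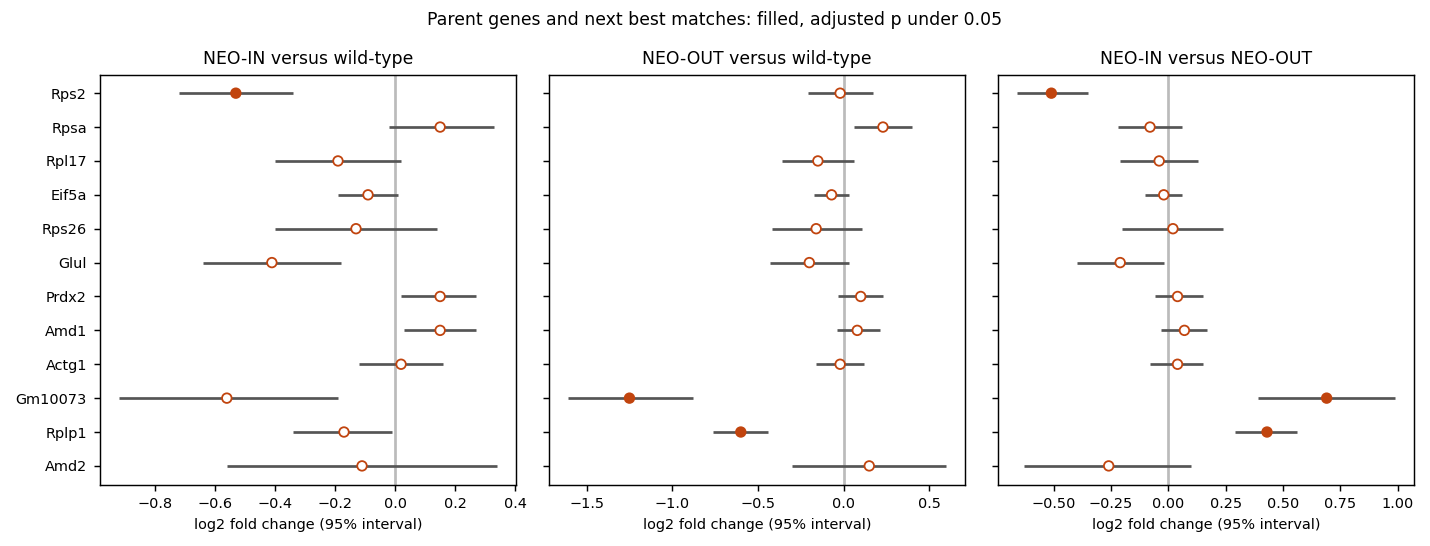
Log2 fold change (horizontal, with 95% interval) of the 10 parent genes and of the next best matches Rplp1 and Amd2 for each strain against wild-type embryos and for NEO-IN against NEO-OUT embryos; filled points have a limma adjusted p under 0.05. Rps2 is filled at -0.53 and -0.51 in the comparisons with NEO-IN, and Gm10073 and Rplp1 at -1.25 and -0.60 in NEO-OUT versus wild-type.

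The genes around the pseudogenes were called about as often as genes in general. Of 60 flanking genes, the 3 nearest tested protein-coding genes on each side, 2 were called in NEO-IN and 3 in NEO-OUT embryos against wild-type, 1 in the mean of both strains and 7 between the strains, beside the shares of all genes given above. Pign, a gene of glycosylphosphatidylinositol anchor synthesis 5.73 Mb from Tdpx-ps1, had 2862 ± 341 normalized counts in NEO-IN (SD, n = 6) and 2903 ± 219 in NEO-OUT (SD, n = 6), against 1570 ± 494 in wild-type (SD, n = 3). Pign was 1.87-fold higher in NEO-IN embryos (limma adjusted p = 0.00123) and 1.90-fold higher in NEO-OUT embryos (limma adjusted p = 0.000665). Arrdc3, an arrestin-domain adaptor 169 kb from Gm8399, fell 1.31-fold in NEO-IN versus wild-type (limma adjusted p = 0.004), to 3631 ± 321 (SD, n = 6) against 4738 ± 223 (SD, n = 3).

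In NEO-IN versus NEO-OUT, Arrdc3 was also lower (-0.35, limma adjusted p = 0.000606), as were Gc, the vitamin D binding protein (-0.51, limma adjusted p = 0.0209), and Rab1a, a GTPase of transport from the endoplasmic reticulum (-0.17, limma adjusted p = 0.00126). Meis1, a homeobox transcription factor 701 kb from Glns-ps1, was higher (0.40, limma adjusted p = 0.0334), and Ankrd17 (0.13), Wwp2 (0.12) and Prkacb (0.11) were higher by small amounts (limma adjusted p = 0.00245, 0.0251 and 0.0426). In NEO-OUT versus wild-type, Ankrd17 was lower by -0.13 and Rab1a higher by 0.14 (limma adjusted p = 0.0164 and 0.0302). The calls of Ankrd17 and Rab1a in this comparison were lost when any 1 wild-type embryo was left out (limma adjusted p = 0.055 to 0.137), that of Meis1 without any 1 of 6 embryos (limma adjusted p = 0.0605 to 0.0747), that of Prkacb without any 1 of 10 (limma adjusted p = 0.054 to 0.0877), and that of Wwp2 without NEO-IN embryo 2 or NEO-OUT embryo 11 (limma adjusted p = 0.0546 and 0.0617). That of Rab1a was also lost without NEO-OUT embryo 8, 10 or 11 (limma adjusted p = 0.0501 to 0.0628). For Rps2-ps13, the nearest tested neighbours Ccdc160 and Phf6 were called in no comparison, and none of its 6 was.

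The pathways of the parents were described by 4 lists of 7 to 12 genes. With 2.98% of all genes called in NEO-IN and 6.35% in NEO-OUT embryos against wild-type, 2.83% in the mean of both strains and 13.3% between the strains, counts of 0 to 2 in lists of this size are near the background and say nothing particular about the lists. Of 8 ribosomal partners of the ribosomal parents, none was called in NEO-IN embryos against wild-type. Rpl26, a large-subunit protein, was 2.09-fold higher in NEO-OUT embryos than in wild-type embryos (log2 1.06, SE 0.29, limma adjusted p = 0.0354), with 16270 to 30271 normalized counts in NEO-OUT embryos against 7422 to 17896 in wild-type embryos. The groups overlap, and the call was lost without wild-type embryo 1 or 2 (limma adjusted p = 0.162 and 0.187), without NEO-OUT embryo 7 or 10 (limma adjusted p = 0.0542 and 0.0676) and with edgeR (edgeR adjusted p = 0.0624). Set against NEO-OUT embryos, NEO-IN embryos had less Rpl26 (-0.83, SE 0.23, limma adjusted p = 0.0268), a call lost without any 1 of 5 embryos (limma adjusted p = 0.0554 to 0.0623). The list's median log2 change was 0.04 in NEO-IN and 0.06 in NEO-OUT versus wild-type, where the median of all genes was 0.00.

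Of 12 genes of polyamine and hypusine synthesis, Odc1, the first enzyme of polyamine synthesis, was higher in NEO-OUT embryos than in wild-type embryos (0.29, SE 0.08, limma adjusted p = 0.036), a call lost without NEO-OUT embryo 8, 9, 10 or 11 or wild-type embryo 1 or 3 (limma adjusted p = 0.0547 to 0.159). None was called in NEO-IN embryos against wild-type. Of 9 genes of the peroxiredoxin and thioredoxin system, Txnrd1, thioredoxin reductase, was higher in NEO-IN than in NEO-OUT embryos (0.18, SE 0.04, limma adjusted p = 0.00413), and 0 were called against wild-type.

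Of 7 genes of glutamine metabolism, none was called in NEO-IN embryos against wild-type. The glutamine carrier Slc1a5 was higher in NEO-IN embryos than in NEO-OUT embryos (0.43, SE 0.08, limma adjusted p = 0.00215). Slc1a5 had 2471 ± 361 normalized counts in NEO-IN embryos and 1825 ± 91 in NEO-OUT embryos (SD, n = 6 each), against 2707 ± 266 in wild-type embryos (SD, n = 3). It was lower in NEO-OUT versus wild-type (-0.57, SE 0.10, limma adjusted p = 0.00272), the only member of the list called there. In the mean of both strains against wild-type, Slc1a5 (-0.35, SE 0.09, limma adjusted p = 0.0415) and Odc1 (0.28, SE 0.07, limma adjusted p = 0.0419) were called, and both calls were lost without wild-type embryo 1 (limma adjusted p = 0.204 and 0.209) or 3 (limma adjusted p = 0.192 and 0.197), among others. List medians in the comparisons with wild-type lay between -0.11 and 0.07.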

How the data were processed

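Polyadenylated RNA of each of 15 whole embryos was sequenced with strand information, per the labels' protocols. The authors deposited a signal per gene and library, the read count over the size factor of that library. In the submitters' processing notes stand mm10, featureCounts, STAR, kallisto, Picard and DESeq2, without roles or versions; how reads matching several places were counted is not given in the sources used here, and it bears on every pseudogene and parent. Dividing by each library's smallest step returned whole reads, within 0.01, in 100% of cases; 76.9% to 79.1% of low counts were even. In 1 cell a stray letter was removed; 98.6% of the identifiers had a symbol in GENCODE M21 (GRCm38). Replicate libraries all differed by more than sampling noise, with 11.5 to 41.2 for chi-square over its degrees of freedom.

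The members and lists were chosen with earlier results of these data known. Named genes are the members, their parents, called flanking genes, the 3 most alike genes and called list genes; 1 result on a list gene is not reported here. Parents are the best protein-coding match by blastn 2.17.0 or the symbol's stem; a best match was found for 989 of 1001 processed pseudogenes. limma-trend (limma 3.58.1, R 4.3.3) was fitted to log2(normalized count + 1) of 16430 genes with a mean of at least 10, in a single fit of 3 groups, with adjusted p under 0.05 as called. Apela KO versus wild-type is the mean of both strain effects. A pseudocount understates the change of low genes. On simulated data for NEO-IN versus wild-type (16360 genes), limma-trend recovered 47.9% of genes changed by 0.5 (log2) and 100% of those changed by 1, with 12 false calls. The simulation gave every gene the same spread beyond sampling noise and changed only genes well above the filter. These shares are therefore not the recovery in the embryos themselves. edgeR 4.0.16, DESeq2 1.42.0, other pseudocounts, filters and scaling, and leaving out each library were alternatives. Figures used matplotlib 3.10.9.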

Additional observations from a re-analysis of the deposited data

Results flagged for a closer look

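In 7 of 64 groups of 6 embryos examined, 1 library stood apart from the others by the gap to its neighbour. The rule gives about 1 in 20 for genes not chosen by their values. Here the pseudogenes and the genes most like them were chosen for their pattern over these embryos, so the 7 cannot be set against that rate. Among the pseudogenes these were Rpsa-ps10 in NEO-IN embryo 3 (18400 normalized counts, others 390 to 497), Rps26-ps1 in NEO-IN embryo 3 (488, others 287 to 360) and Gm8399 in NEO-IN embryo 6 (77.2, others 107 to 124). Among the parents, Rpl17 stood apart in NEO-OUT embryo 9 (30229, others 40041 to 44080) and Amd1 in NEO-IN embryo 6 (7631, others 8662 to 9250). Il27ra stood apart in NEO-OUT embryo 7 (11.2, others 3.82 to 6.39) and Gm17511 in NEO-IN embryo 4 (16.5, others 43.6 to 58.6).

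In the test of NEO-IN versus NEO-OUT, levels differed for 10 genes among the parents, next best matches and flanking genes. Both strains are knockouts set against the same wild-type embryos. The part of the knockout in these differences, as against other differences between the strains, was therefore not tested. Of parents and next best matches, the log2 difference was -0.51 for Rps2, 0.69 for Gm10073 and 0.43 for Rplp1. Of flanking genes it was 0.11 for Prkacb, -0.51 for Gc, 0.13 for Ankrd17, 0.12 for Wwp2, 0.40 for Meis1, -0.17 for Rab1a and -0.35 for Arrdc3.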

How the results depend on the processing

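The parents called in each comparison kept their direction under all alternatives run, and Rps2 and Gm10073 kept their calls; Rplp1 in the mean of both strains lost its call without wild-type embryo 2 (-0.28, limma adjusted p = 0.0787). With DESeq2, 899, 929 and 1634 genes were called in Apela KO, NEO-IN and NEO-OUT versus wild-type, where limma called 465, 489 and 1043; parents called were 3 in Apela KO and 3 in NEO-IN versus wild-type, and flanking genes 4, 5 and 7. With 1 library left out in turn, the genes called ran from 153 to 477 in Apela KO, 206 to 598 in NEO-IN and 383 to 1232 in NEO-OUT versus wild-type, and from 1673 to 2245 in NEO-IN versus NEO-OUT. Without wild-type embryo 1, 2 or 3, the genes called were 153, 160 and 200 in Apela KO, 239, 206 and 223 in NEO-IN and 383, 421 and 500 in NEO-OUT. On the recovered reads edgeR called 488, 525 and 1059 against wild-type and 2157 between the strains. When limma was run with each library left out in turn, 1 to 2 parents were called in each comparison with wild-type. Between the strains 2 to 3 parents were called. Flanking genes called ran from 1 to 2 in Apela KO, 2 to 4 in NEO-IN and 1 to 4 in NEO-OUT versus wild-type, and from 4 to 9 between the strains. NEO-IN and wild-type embryos share the numbers 1 to 3, but same-numbered embryos did not deviate together (correlations of 0.05, 0.02 and 0.00); on those 6 libraries the fit with the replicate block called 487 genes, 2 parents and 3 flanking genes, and the fit without it 542, 2 and 4. Of the 30 most alike genes, 2 lay on the pseudogene's chromosome and 3 near the parent with Spearman correlation, in place of 1 and 5. With 3 wild-type embryos, every comparison with wild-type is limited in precision.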
